A study of Mus musculus with 12 samples.

Results

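Glutathione S-transferases were measured in the lungs of mice lacking the transcription factor Nrf2 and of mice carrying it, after mechanical ventilation or spontaneous breathing. The 9 genes were Gstm1, Gstm2, Gsta2, Gsta3, Gsta4, Gstp1, Gsto1, Gstt1 and Mgst1, and every probe set that the platform annotation assigns to any of them was taken. The 9 are among 12394 genes that the annotation names by a probe set of their own. The rule gave 16 probe sets of the 22626 on the Murine Genome 430A array that are not hybridisation controls. Of these, 15 name a single gene. The remaining one, 1421041_s_at, is assigned to Gsta1, Gsta2 and Gm3776 together and is called the Gsta1/Gsta2 probe set here. Probe sets ending in _x_at or _s_at hold probes that may bind transcripts of related genes, which matters for close paralogs such as Gstm1 and Gstm2.

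The 12 arrays fell into 4 groups of 3, all from CD-1/ICR mice. KO HVT lungs came from Nrf2-/- mice ventilated at a high tidal volume of 30 ml/kg for 2 hours, and KO SpV lungs from Nrf2-/- mice that breathed spontaneously for 2 hours. WT HVT and WT SpV lungs came from Nrf2+/+ mice under the same conditions. The labels do not say that arrays of a group came from separate animals, so the p-values below measure the spread between arrays, which may be partly technical. WT SpV array 1 was labelled as whole lung and the other 11 arrays as left lobe. The labels give neither the age of the mice nor the part of the Nrf2 gene that was deleted.

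Glutathione S-transferases join the tripeptide glutathione to electrophilic molecules, such as oxidised lipids and drug metabolites, which can then be exported from the cell. The cytosolic enzymes form classes named mu (Gstm), alpha (Gsta), pi (Gstp), omega (Gsto) and theta (Gstt), and Mgst1 is an unrelated membrane protein with the same activity. Nrf2, encoded by Nfe2l2, binds antioxidant response elements with a small Maf partner and is known as an activator of several of these genes in mouse tissues.

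Values below are signals after each array was scaled to a trimmed mean of 500 and quantile normalised. Differences are log2 differences fitted with limma, given with their standard error, and a probe set is called at an adjusted p under 0.05 (two-sided, Benjamini-Hochberg over the 15882 probe sets kept). Nfe2l2 itself had signals of 36.3 to 61.5 in KO lungs and 2152.3 to 3307.9 in WT lungs, with a KO minus WT difference of -5.54 ± 0.20 under HVT and -5.55 ± 0.20 under SpV (limma, adjusted p = 3.09e-08 and 3.00e-08). The lung surfactant gene Sftpc had signals of 12238.5 to 26222.7 on the 12 arrays. KO SpV array 1 stood apart from the others. Its trimmed mean before scaling was the lowest, at 73.4 with a highest of 468 among the arrays, and its 3′ to 5′ signal ratio for actin, a measure of RNA integrity, was 8.76. The other KO SpV arrays had ratios of 1.39 and 1.52, the KO HVT arrays 2.21 to 3.10, the WT HVT arrays 1.53 to 1.99 and the WT SpV arrays 2.08 to 2.51. Trimmed means before scaling were 181 to 245 in KO HVT lungs, against 278 to 438 in WT HVT lungs. Under HVT, neither the trimmed means nor the actin ratios of KO and WT arrays overlapped. These array properties cannot be told apart from genotype under HVT. Results that rest on KO SpV array 1 are given with and without it.

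Loss of Nrf2 went with lower signals of Gstm1, Gstm2 and Gsta3, and with all arrays no other member was called. Averaged over HVT and SpV, 7 of the 15 member probe sets that passed the signal filter were lower in KO lungs and 0 were higher, where 1.83% of all probe sets were called lower and 1.41% higher. Those 7 were the 4 of Gstm1, the 1 of Gstm2 and both of Gsta3. For each of the 7, all 6 KO arrays lay below all 6 WT arrays, which held for 1.34% of all probe sets. Among KO and WT lungs under SpV alone 4 members were called lower (background 0.264%), and under HVT alone 5 were (background 0.365%). Without KO SpV array 1 the counts were 7 under SpV and 7 under HVT, where 0.756% and 3.11% of all probe sets were called lower. The 7 under SpV were those named above. The 7 under HVT included Gstp1 (-0.50, limma, adjusted p = 0.044) and left out Gstm1 1425627_x_at (-0.86, limma, adjusted p = 0.0537). KO and WT arrays did not overlap for 8 members that were lower under SpV (9.27% of all probe sets), and for 8 that were lower and 1 that was higher under HVT (13.1% and 11.4%). The median KO minus WT difference over the 15 was -0.51 under HVT and -0.37 under SpV, where the median of all probe sets was 0.00 and -0.02. A lower signal in lung tissue can come from fewer cells of a type or from less RNA per cell, and these cannot be told apart here.

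**Figure D1:**
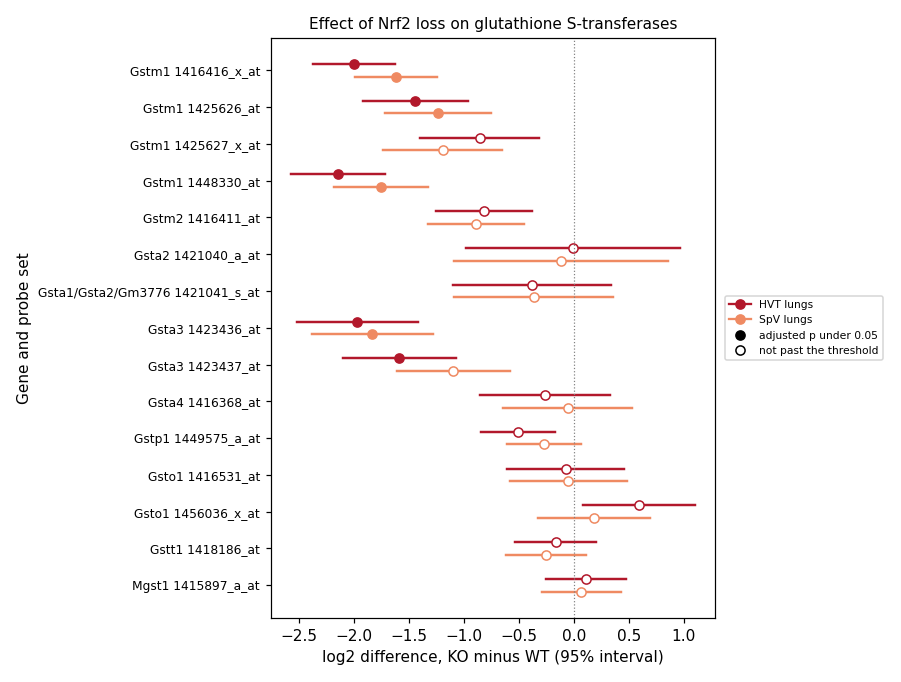
KO minus WT log2 difference of each member probe set that passed the filter, with 95% intervals, under HVT and SpV. Filled points passed an adjusted p of 0.05. The probe sets of Gstm1, Gstm2 and Gsta3 lie left of 0 in both conditions, and those of the other genes lie between -0.51 and 0.59.

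The sequences before the start sites of Gstm1, Gstm2 and Gsta3, whose signals differed by genotype, are shown beside that of Mgst1, whose signal did not pass the test, because Nrf2 acts through elements in such regions. The windows come from RefSeq (GRCm38.p6), which gave 10 windows for 8 of the 9 genes, with no entry used for Gsta4. A core of the antioxidant response element, TGACNNNGC or GCNNNGTCA on the other strand, was searched from 250 bases before to 50 bases after each start. Capitals mark a match, and the 250 bases before the start are printed 5′ to 3′ on the strand of the gene. The regions are chr3:108017974-108018223 on the minus strand for Gstm1, chr3:107986421-107986670 on the minus strand for Gstm2, chr1:21240335-21240584 on the plus strand for Gsta3 and chr6:138140277-138140526 on the plus strand for Mgst1.
Gstm1: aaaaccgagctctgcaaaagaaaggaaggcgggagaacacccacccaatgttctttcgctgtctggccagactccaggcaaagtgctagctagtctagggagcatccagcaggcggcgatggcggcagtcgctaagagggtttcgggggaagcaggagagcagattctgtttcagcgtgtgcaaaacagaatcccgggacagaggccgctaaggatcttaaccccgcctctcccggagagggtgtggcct
Gstm2: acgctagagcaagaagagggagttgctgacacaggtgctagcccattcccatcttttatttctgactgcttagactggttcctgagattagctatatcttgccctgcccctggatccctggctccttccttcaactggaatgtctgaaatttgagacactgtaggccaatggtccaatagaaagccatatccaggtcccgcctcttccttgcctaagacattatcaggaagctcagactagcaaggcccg
Gsta3: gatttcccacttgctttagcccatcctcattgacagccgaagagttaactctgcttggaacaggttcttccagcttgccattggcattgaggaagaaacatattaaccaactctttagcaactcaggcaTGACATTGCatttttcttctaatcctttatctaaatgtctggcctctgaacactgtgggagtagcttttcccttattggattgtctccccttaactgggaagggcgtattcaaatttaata
Mgst1: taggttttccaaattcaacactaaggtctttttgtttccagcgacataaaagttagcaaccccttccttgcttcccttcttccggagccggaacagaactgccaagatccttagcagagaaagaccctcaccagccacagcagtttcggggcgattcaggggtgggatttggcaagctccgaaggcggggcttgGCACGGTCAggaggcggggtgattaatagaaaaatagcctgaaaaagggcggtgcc

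The core was found in 2 of the 10 windows of the members and in 12.4% of 32851 windows of all genes. In Gsta3 it ran from base -121 to -113 before the start site, and in Mgst1 from -56 to -48 on the opposite strand. Neither window of Gstm1 held these letters, nor did those of Gstm2, Gsta2, Gstp1, Gsto1 and Gstt1. The letters TGANTCA, which AP-1 factors bind, were found from -74 to -68 of Gstp1 and in 7.81% of all windows. In Gstp1 they are part of TGAGTCAGC, which differs from the searched core TGACNNNGC only by a G in place of the C. The core search could not count this site, and whether Nrf2 binds it was not tested. A match describes the letters of a short window and does not show that a factor binds there. A window without a match says nothing of sites farther away.

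Gstm1 is a mu-class enzyme that conjugates aryl halides and epoxides. Its probe set 1416416_x_at had signals of 1238.8, 978 and 903 in KO HVT lungs, against 4800.3, 3630.6 and 4178.8 in WT HVT lungs. Under SpV it had 1492.7, 1261.1 and 1353.1 in KO lungs, against 4025.8, 5084.0 and 3661.3 in WT lungs. The highest KO array was 2.43-fold below the lowest WT array. The KO minus WT difference was -2.00 ± 0.17 under HVT (limma, adjusted p = 0.000239) and -1.61 ± 0.17 under SpV (limma, adjusted p = 0.000984), and averaged over both it was a 3.50-fold lower signal.

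Gstm1 probe set 1448330_at, which carries no cross-hybridisation suffix, gave the same order. It had signals of 857, 835 and 663 in KO HVT lungs, against 4285.0, 2772.2 and 3645.0 in WT HVT lungs. KO SpV lungs had 1243.7, 1015.2 and 1067.7, against 3395.2, 4739.6 and 3314.9 in WT SpV lungs. No KO array reached a WT array, and the averaged difference was -1.95 ± 0.14 (limma, adjusted p = 1.29e-05), a 3.87-fold lower signal.

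The other Gstm1 probe sets gave smaller differences. Probe set 1425626_at had 159, 115 and 193 in KO HVT lungs, against 481, 366 and 490 in WT HVT lungs, and 211, 128 and 162 in KO SpV lungs, against 390.0, 414 and 415 in WT SpV lungs. Its averaged difference was -1.34 ± 0.16 (limma, adjusted p = 0.000851). Probe set 1425627_x_at had 429, 447 and 485 in KO HVT lungs, against 1026.9, 575 and 978 in WT HVT lungs. The KO group lay below the WT group in both conditions, but the nearest KO and WT arrays of this probe set were only 1.15-fold apart. With all arrays it was called only in the average over both conditions, at -1.03 ± 0.18 (limma, adjusted p = 0.00996), with adjusted p = 0.174 under HVT and 0.0596 under SpV. It was called under SpV without KO SpV array 1 (-1.35, limma, adjusted p = 0.0216). The 4 Gstm1 probe sets thus ran from -1.95 to -1.03.

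Gstm2 is the mu-class neighbour of Gstm1 on chromosome 3 and resembles it closely in sequence. Its probe set had 1542.4, 1685.1 and 1267.5 in KO HVT lungs, against 3084.7, 2192.0 and 2693.1 in WT HVT lungs. It had 1788.9, 1058.5 and 1421.5 in KO SpV lungs, against 2710.8, 2335.1 and 2768.3 in WT SpV lungs. All KO arrays lay below all WT arrays, with a gap of 1.23-fold. Averaged over both conditions Gstm2 was 1.81-fold lower in KO lungs (-0.85 ± 0.14, limma, adjusted p = 0.00836). Within 1 condition it did not pass the test, with -0.82 ± 0.20 under HVT (adjusted p = 0.115) and -0.89 ± 0.20 under SpV (adjusted p = 0.0824). Gstm2 was called in both without KO SpV array 1, at -0.81 under HVT (limma, adjusted p = 0.02) and -1.07 under SpV (limma, adjusted p = 0.0135).

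Gsta3 is an alpha-class enzyme that in mice conjugates the epoxide of aflatoxin. Probe set 1423436_at had 451, 211 and 225 in KO HVT lungs, against 992, 1043.8 and 1422.5 in WT HVT lungs. KO SpV lungs had 275, 271 and 246, against 978, 869.9 and 1115.1 in WT SpV lungs. KO and WT arrays did not overlap, and KO HVT array 1 was the highest of the KO arrays. The difference was -1.97 ± 0.25 under HVT (limma, adjusted p = 0.0035) and -1.84 ± 0.25 under SpV (limma, adjusted p = 0.00774), which is 3.74-fold lower over both.

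The other Gsta3 probe set, 1423437_at, had 297, 252 and 315 in KO HVT lungs, against 805, 764 and 1163.1 in WT HVT lungs. It had 421, 313 and 220 in KO SpV lungs, against 729, 744 and 571 in WT SpV lungs. The groups did not overlap in either condition. The difference was called under HVT (-1.59 ± 0.24, limma, adjusted p = 0.0105) and missed the threshold under SpV (-1.10 ± 0.24, adjusted p = 0.0682). This probe set was called under SpV too without KO SpV array 1 (-1.32, limma, adjusted p = 0.0105).

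**Figure D2:**
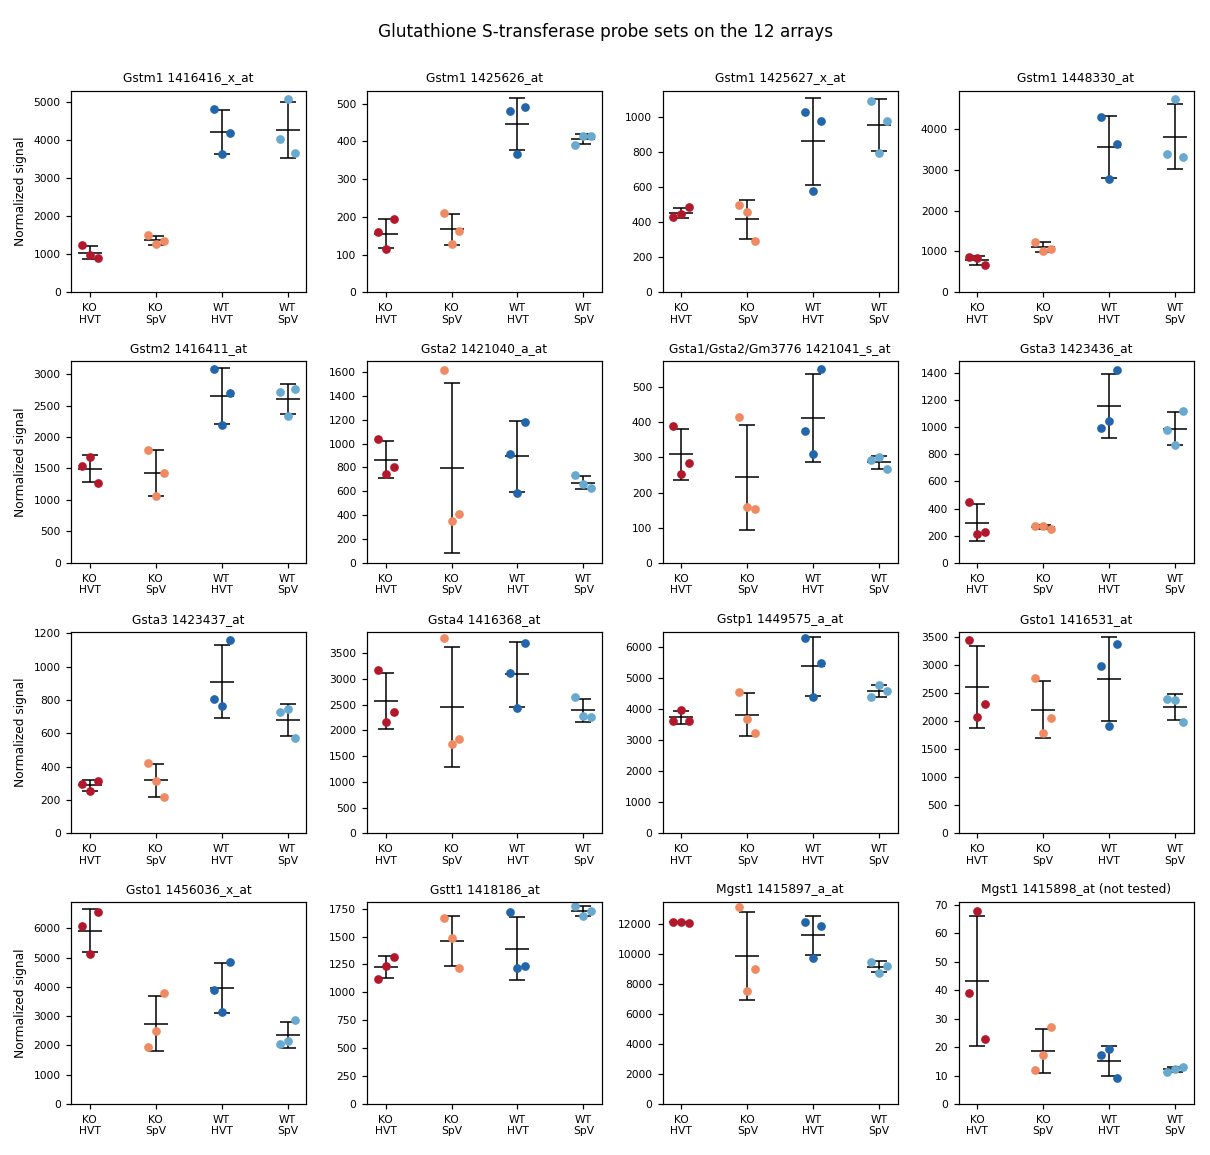
Normalised signal (linear scale) of the member probe sets on each array, by group in the order KO HVT, KO SpV, WT HVT, WT SpV, with the group means and standard deviations. KO and WT arrays are apart for Gstm1 and Gsta3, and 1 KO SpV array lies far above the other 2 for Gsta2.

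The other alpha-class members were not called by genotype. Gsta2, a peroxidase-active alpha enzyme, had 1041.2, 746 and 807 in KO HVT lungs, against 909, 590.1 and 1185.1 in WT HVT lungs. In KO SpV lungs it had 1615.2, 349.8 and 412, against 737, 657 and 628 in WT SpV lungs. KO SpV array 1 alone gave the value of 1615.2, and the other KO SpV arrays lay below every WT SpV array. The averaged difference for Gsta2 was -0.06, with a 95% interval of -0.75 to 0.63. Without KO SpV array 1 the averaged Gsta2 difference was -0.41, with an interval of -0.77 to -0.04 (limma, adjusted p = 0.192), and the SpV difference was -0.80 ± 0.25 (limma, adjusted p = 0.126). With all arrays and the actin ratio as a covariate, the averaged Gsta2 difference was -0.41 (limma, adjusted p = 0.17). Under HVT it was then -0.55 (limma, adjusted p = 0.305), against -0.01 without the covariate. KO SpV array 1 also enters the estimate of that covariate.

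The Gsta1/Gsta2 probe set also had its highest KO SpV value on array 1. It had 390.1, 252 and 283 in KO HVT lungs, against 375.0, 309 and 551 in WT HVT lungs, and 415, 159 and 154 in KO SpV lungs, against 292, 301 and 266 in WT SpV lungs. Its averaged difference was -0.37, with an interval of -0.88 to 0.14. Leaving out KO SpV array 1 gave -0.60, with an interval of -0.95 to -0.25 (limma, adjusted p = 0.0502), and the SpV difference was -0.81. Gsta4, which conjugates the lipid peroxidation product 4-hydroxynonenal, ranged over 1738.5 to 3788.2 in KO lungs and 2253.7 to 3701.4 in WT lungs. Its averaged difference was -0.16, with an interval of -0.58 to 0.26. The averaged Gsta4 difference without KO SpV array 1 was -0.34, with an interval of -0.62 to -0.06 (limma, adjusted p = 0.159), and the SpV difference was -0.42, against -0.06 with all arrays. With all arrays and the actin ratio as a covariate, the averaged Gsta4 difference was -0.35 (limma, adjusted p = 0.118). Under HVT it was then -0.56 (limma, adjusted p = 0.16), against -0.26 without the covariate.

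Gstp1, the pi-class enzyme, had 3622.8, 3986.8 and 3638.3 in KO HVT lungs, against 6290.6, 4401.0 and 5501.1 in WT HVT lungs. In KO SpV lungs it had 4574.0, 3698.9 and 3231.9, against 4388.1, 4781.5 and 4597.0 in WT SpV lungs. The KO HVT arrays lay below the WT HVT arrays, and KO SpV array 1 lay within the WT SpV range. The averaged Gstp1 difference was -0.39 ± 0.11 and missed the threshold (limma, adjusted p = 0.0741). Without KO SpV array 1 it was -0.45 ± 0.10 and was called (limma, adjusted p = 0.0174), where 3.09% of all probe sets were called lower. The HVT difference of Gstp1 was -0.51 ± 0.16 with all arrays (limma, adjusted p = 0.195). Without KO SpV array 1 the HVT difference was -0.50 ± 0.13 and was called (limma, adjusted p = 0.044). There 3.11% of all probe sets were called lower.

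The omega, theta and membrane enzymes showed no called difference by genotype. Gsto1, which reduces dehydroascorbate and thiol adducts, differed by -0.06 at probe set 1416531_at (interval -0.44 to 0.31, and -0.15 without KO SpV array 1) and by 0.39 at 1456036_x_at (interval 0.02 to 0.75, limma, adjusted p = 0.225). Without KO SpV array 1 the difference at 1456036_x_at was 0.49, with an interval of 0.17 to 0.80 (limma, adjusted p = 0.0745). Gstt1, which acts on small halogenated molecules, had 1123.9, 1234.2 and 1319.4 in KO HVT lungs and 1721.3, 1221.7 and 1234.5 in WT HVT lungs. In SpV lungs Gstt1 had 1665.0, 1490.3 and 1218.4 in KO, against 1772.9, 1681.9 and 1727.4 in WT, with the KO arrays below the WT arrays. The averaged Gstt1 difference was -0.21 (interval -0.47 to 0.05). Leaving out KO SpV array 1 gave -0.26, with an interval of -0.51 to -0.01 (limma, adjusted p = 0.223).

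Mgst1, a peroxidase and transferase of the endoplasmic reticulum and the outer mitochondrial membrane, ranged over 7513.9 to 13133.9 in KO lungs and 8749.5 to 12102.5 in WT lungs. The Mgst1 difference was 0.09, with an interval of -0.17 to 0.35, and without KO SpV array 1 it was -0.02, with an interval of -0.18 to 0.14. Its deposited signal was 27.9% to 64.4% of the highest signal of the same array. The other Mgst1 probe set, 1415898_at, reached the filter signal of 100 on 0 of 12 arrays and was not tested. It had 39.2, 68.0 and 22.7 in KO HVT lungs, 11.8, 17.1 and 26.9 in KO SpV lungs, 17.1, 19.2 and 9.09 in WT HVT lungs and 11.3, 12.4 and 13.1 in WT SpV lungs.

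Differences between close relatives were tested directly with an exact permutation of genotype labels within HVT and within SpV, two-sided, for 8 pairs chosen with the values known. Gstm1 (1416416_x_at) had a lower KO minus WT difference than Gstm2, by -0.95 on the log2 scale. The size depended on the Gstm1 probe set. It was -1.10 at 1448330_at, -0.48 at 1425626_at and -0.17 at 1425627_x_at, with exact permutation p-values, adjusted over the 4 Gstm1 probe sets, of 0.01, 0.0133 and 0.38. The difference of Gstm1 1416416_x_at was also lower than those of Gstm3, Gstm4, Gstm5 and Gstm7, by -1.65, -1.91, -1.70 and -1.88. The probe sets of those genes were dim, where differences may be understated. Signals were 39.6 to 195 for Gstm3, an _s_at probe set, and 153 to 272 for Gstm4. They were 236 to 494 for Gstm5 and 81.3 to 218 for Gstm7, against 903 to 5084.0 for Gstm1. These mu genes lie side by side on chromosome 3 in the order Gstm5, Gstm7, Gstm6, Gstm3, Gstm2, Gstm1 and Gstm4, with 0 other protein-coding genes between neighbours. Gsta3 (1423436_at), which lies on chromosome 1, had a lower KO minus WT difference than Gsta2 and Gsta4 on chromosome 9 by -1.84 and -1.74. It was lower than the Gsta1/Gsta2 probe set by -1.53. The other Gsta3 probe set, 1423437_at, had a smaller averaged difference (-1.34, against -1.90) and was not tested in these pairs. Without KO SpV array 1, which the pair tests include, the averaged differences of Gsta2 and Gsta4 were -0.41 and -0.34. For the 8 pairs each permutation test gave p = 0.005, also after Benjamini-Hochberg adjustment, which is the smallest p that 400 permutations can give.

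**Figure D3:**
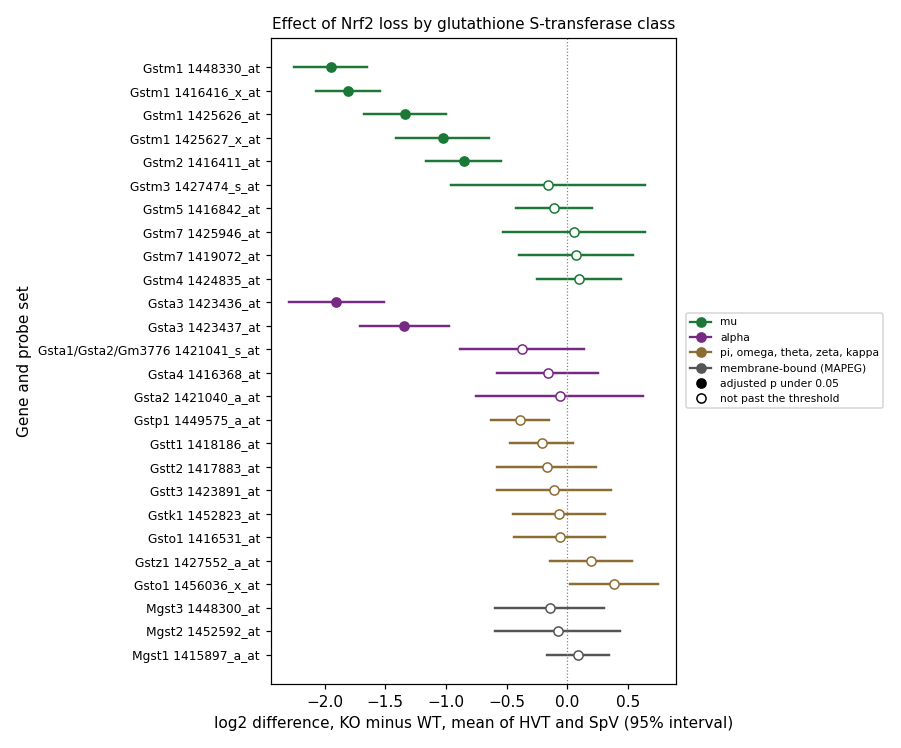
KO minus WT log2 difference, averaged over HVT and SpV, with 95% intervals, for members and other glutathione S-transferase genes grouped by class. Gstm1 and Gsta3 lie below -1, Gstm2 near -0.85, and the remaining mu and alpha probe sets between -0.37 and 0.10.

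No glutathione S-transferase gene outside the members was called. Of 17 further genes of the family, 12 were on the array and 10 passed the filter. By limma 0 of the 10 were called in any contrast, with a median KO minus WT difference of -0.09 over both conditions. The 2 with the smallest p were Gstm5, at -0.35 ± 0.20 under SpV (adjusted p = 0.50), and Gstz1, a zeta-class enzyme of tyrosine breakdown, at 0.29 ± 0.22 for HVT minus SpV in WT lungs (adjusted p = 0.866).

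Ventilation gave no called change of a member. By limma 0 of 15 were called for HVT minus SpV in KO lungs and 0 in WT lungs, where 0% and 0.0252% of all probe sets were called. At an unadjusted p under 0.05 there were 3 members in KO lungs and 1 in WT lungs, where 11.2% and 7.29% of all probe sets passed. The median ventilation difference over the members was 0.10 in KO lungs and 0.22 in WT lungs, where the median of all probe sets was 0.01 and -0.02. HVT and SpV arrays did not overlap for 1 member that was higher and 2 that were lower in KO lungs (7.49% and 7.49% of all probe sets), and for 4 that were higher in WT lungs (8.41%). In WT lungs 0 members were lower without overlap, where 8.01% of all probe sets were.

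The clearest ventilation values were those of Gsto1 probe set 1456036_x_at. It had 6077.6, 5114.0 and 6542.2 in KO HVT lungs, against 1953.1, 2490.9 and 3779.6 in KO SpV lungs. WT HVT lungs had 3888.1, 3155.6 and 4834.8, against 2037.3, 2160.8 and 2858.9 in WT SpV lungs. All HVT arrays lay above the SpV arrays of their genotype. The difference was 1.15 ± 0.24 in KO lungs (limma, adjusted p = 0.192) and 0.74 ± 0.24 in WT lungs (limma, adjusted p = 0.437), so neither passed. Averaged over the genotypes, a contrast added after the values were seen, it was 0.95 ± 0.17 (limma, adjusted p = 0.0556), and 0 of 15 members were called where 0.126% of all probe sets were. Without KO SpV array 1 it was 0.83 ± 0.15 and was called (limma, adjusted p = 0.0108).

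Gsto1 probe set 1416531_at did not share that size, with HVT minus SpV differences of 0.23 in KO lungs and 0.25 in WT lungs and overlapping arrays. It had 3440.1, 2070.5 and 2311.0 in KO HVT lungs, against 2770.7, 1784.8 and 2047.1 in KO SpV lungs. The ventilation difference averaged over genotypes was 0.70 higher at 1456036_x_at than at 1416531_at (exact permutation within genotypes, two-sided, p = 0.03, smallest possible 0.005, chosen after the values were seen). Whether the _x_at probes bind another transcript was not tested.

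The other ventilation differences were smaller. Gstm1 was lower in KO HVT than in KO SpV lungs without overlap at 1448330_at (-0.49 ± 0.20, limma, adjusted p = 0.384) and at 1416416_x_at (-0.40 ± 0.17, limma, adjusted p = 0.416). In WT lungs the same Gstm1 probe sets differed by -0.10 and -0.01. Mgst1 differed by 0.33 ± 0.17 in KO lungs and by 0.29 ± 0.17 in WT lungs, and none of these passed the test.

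**Figure D4:**
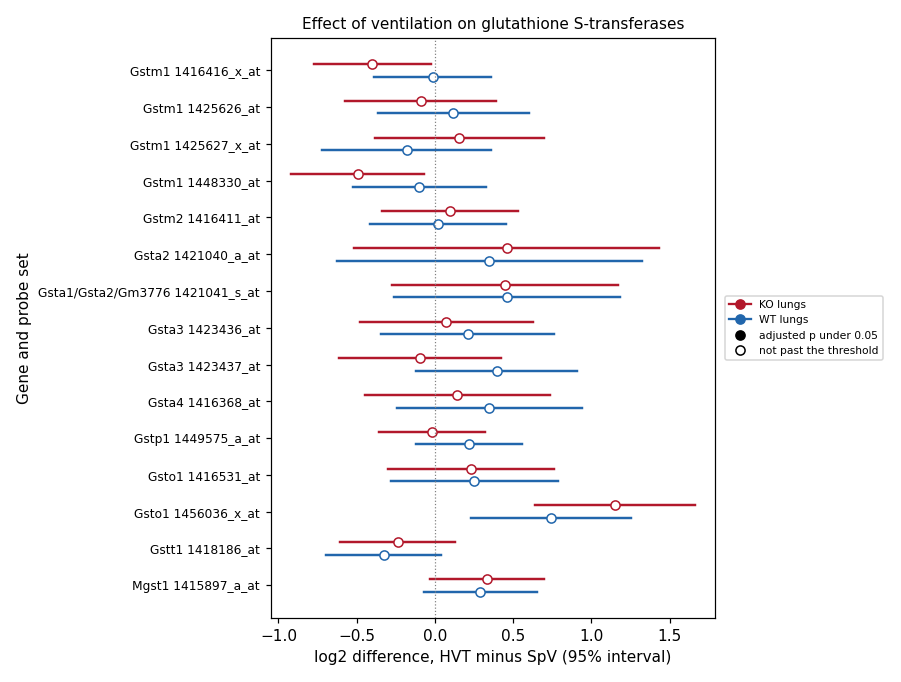
HVT minus SpV log2 difference of each member probe set with 95% intervals, in KO lungs and in WT lungs. All points are open, since none passed an adjusted p of 0.05, and Gsto1 1456036_x_at lies farthest right in both genotypes.

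KO SpV array 1 carried weight in the ventilation contrast of KO lungs. Without it, 4 of 15 members were called higher in KO HVT than in KO SpV lungs, where 2.35% of all probe sets were called higher. These were Gsta2 at 1.15 ± 0.25 (limma, adjusted p = 0.0226), the Gsta1/Gsta2 probe set at 0.90 ± 0.24 (0.0466), Gsto1 1456036_x_at at 0.92 ± 0.22 (0.0309) and Mgst1 at 0.52 ± 0.11 (0.0196). In this setting the KO SpV group holds 2 arrays. With all arrays Gsta2 differed by 0.46 ± 0.45 in KO lungs. The same 4 probe sets were called in the average over the genotypes without that array, where 2.39% of all probe sets were called higher. There Gsta2 differed by 0.75 (limma, adjusted p = 0.0246), the Gsta1/Gsta2 probe set by 0.68 (0.0308), Gsto1 1456036_x_at by 0.83 (0.0108) and Mgst1 by 0.39 (0.0133).

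The ventilation response of KO lungs minus that of WT lungs was tested as an interaction. By limma 0 of 15 members were called, as were 0% of all probe sets, and 0 members had an unadjusted p under 0.05, which 796 of all probe sets had. The interaction was -0.39 ± 0.28 for Gstm1 1448330_at and 0.41 ± 0.33 for Gsto1 1456036_x_at. Without KO SpV array 1 the count of members was still 0, where 0.653% of all probe sets were called. For Gstm1 the KO minus WT difference was larger under HVT at 3 probe sets and smaller at 1425627_x_at, with an interaction of 0.34, and none of these passed the test.

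Genes that make glutathione or carry conjugates away were examined beside the members. Of the 6 genes of glutathione supply 5 passed the filter, and 1 was called. This was Gclc, the catalytic subunit of the rate-limiting enzyme of glutathione synthesis. Gclc probe set 1424296_at had 2837.3, 2293.7 and 2440.9 in KO HVT lungs, against 6979.0, 5833.2 and 6496.4 in WT HVT lungs. In SpV lungs it had 1898.2, 3498.9 and 3368.6 in KO, against 4222.1, 3536.5 and 2735.9 in WT, and these overlapped. The Gclc difference was -1.35 ± 0.23 under HVT (limma, adjusted p = 0.0196). HVT minus SpV at this probe set was 0.90 ± 0.23 in WT lungs (limma, adjusted p = 0.289) and -0.16 ± 0.23 in KO lungs. The interaction was -1.06 ± 0.32 (limma, adjusted p = 0.986). Without KO SpV array 1, 1 supply gene was called higher for HVT minus SpV in WT lungs, and 1 lower in the interaction. Of 18 genes of mercapturate formation and conjugate export, 11 passed the filter and by limma 0 were called with all arrays. Without KO SpV array 1, 1 of the 11 was called lower for the averaged KO minus WT difference. In that setting 1 was called higher for HVT minus SpV averaged over the genotypes. With all arrays the 2 with the smallest p were Chac1, a glutathione-degrading enzyme, at 1.32 ± 0.41 for HVT minus SpV in KO lungs (adjusted p = 0.312), and its relative Chac2, at 0.95 ± 0.30 for the interaction (adjusted p = 0.986).

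The genes outside the family whose profiles were closest to that of Gstm1 (1416416_x_at) were ranked by the root mean square of log2 differences over the 12 arrays, after centring each gene. Among 1699 probe sets with an SD of at least 0.5 over the arrays the closest were Aox1 (0.22), Gpx2 (0.28), Cwc22 (0.37), Ggcx (0.42) and Wfdc21 (0.43), where the Gstm1 signal itself had an SD of 0.97 over the arrays. Aox1, an aldehyde oxidase, had 429, 409 and 347 in KO HVT lungs, against 1670.4, 1364.6 and 1824.6 in WT HVT lungs. Gpx2, a glutathione peroxidase, had 365, 176 and 209 in KO HVT lungs, against 1138.0, 863 and 1511.2 in WT HVT lungs. The likeness is over arrays that share the genotype groups.

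Markers of some other cell types also differed between KO and WT lungs. Averaged over both conditions, 11 of 12 endothelial markers were lower in sign in KO lungs, with a median of -0.99 and 7 called lower. Their summed signals were 13061.2 to 14770.9 in KO HVT, 13042.9 to 27621.1 in KO SpV, 23625.6 to 38144.5 in WT HVT and 33288.6 to 41772.3 in WT SpV lungs. All 9 heart muscle markers were higher in sign, with a median of 0.87 and 8 called. Of all probe sets 1.83% were called lower and 1.41% higher. Their sums were 58199.2 to 70652.3 in KO HVT, 46737.6 to 57933.6 in KO SpV, 27127.9 to 43855.1 in WT HVT and 28369.1 to 39860.1 in WT SpV lungs. Without KO SpV array 1 the endothelial median was -0.78 with 10 called lower. The heart muscle median was then 0.91 with 9 called higher. In that setting 3.09% of all probe sets were called lower and 2.48% higher.

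The 9 markers of club cells, an airway cell type rich in these enzymes, had a median of 0.09, with 7 higher in sign and 2 called higher. Without KO SpV array 1 the club cell median was 0.05, with 4 lower in sign, 1 called lower and 2 called higher. Some of these markers were among the highest signals of the arrays, such as Scgb1a1 at 22275.4 to 26222.7, where differences may be compressed. All 6 markers of alveolar type I cells that passed the filter were lower in sign, with a median of -0.74 and 2 called. Without that array the type I median was -0.56, with 3 called lower. With all arrays the medians were -0.10 for alveolar type II, -0.03 for neutrophil, -0.17 for macrophage and -0.34 for fibroblast markers. They were 0.46 for ciliated cell, 0.42 for fat, 0.15 for liver and 0.02 for red cell markers. In these further lists 1 fat marker was called higher and no other marker was called. The part of these cell types in the differences of Gstm1, Gstm2 and Gsta3 was not tested.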

How the data were processed

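Lung RNA was measured on 12 Murine Genome 430A arrays (Affymetrix). The deposited values are probe set intensities from GCOS 1.4, per the submitters' processing notes. The series text states scaling to 500, which the deposited intensity values do not show, so each array was scaled here to a mean of 500 (2% trimmed at each end), quantile normalised and taken as log2(signal + 16). The 64 AFFX controls were left out, and probe sets with a scaled signal of at least 100 on 3 or more arrays were kept (15882 of 22626). Differences are on the log2(signal + 16) scale and understate those of dim probe sets.

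The 4 groups entered 1 fit with limma 3.58.1 in R 4.3.3 (8 residual degrees of freedom, empirical Bayes with trend), checked on simulated data, with 6 contrasts. Alternatives covered scaling, pseudocount, filter, covariates, a replicate block and leaving out each array. The labels do not say whether replicate numbers pair the arrays. Same-numbered arrays of different groups deviated together above 0.1 in 6 of 18 pairs (median 0.06, against -0.01 for other pairs). Between KO SpV, WT HVT and WT SpV these correlations were all positive, at 0.05 to 0.38. Those with KO HVT were -0.18 to 0.09. A pairing of part of the groups cannot be settled, and the main fit used no replicate block. Precision is limited by 3 arrays a group.

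In the platform annotation 20393 probe sets name 1 gene, 691 several and 1555 none. Named genes are all members, the called or 2 smallest-p genes of each pathway list, and the 5 profiles closest to Gstm1. Members and lists were chosen with earlier results of these data known.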

Additional observations from a re-analysis of the deposited data

How the results depend on the processing

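The directions of the 7 called Gstm1, Gstm2 and Gsta3 differences held under every alternative run. The count of members called for KO minus WT under SpV was 4, and it was 7 when arrays were scaled to equal medians, 7 with the actin ratio as a covariate, 2 of 9 with 1 probe set per gene, and 0 on the deposited values without scaling. Leaving out 1 array gave 3 to 7, with the 7 without KO SpV array 1. Under HVT the count was 5, with 3 without scaling, 2 with 1 probe set per gene, and 3 to 7 leaving out 1 array (3 without KO HVT array 2, 7 without KO SpV array 1). Averaged over both it was 7, with 3 when 1 probe set per gene was used, 9 with the actin covariate and 7 to 8 leaving out 1 array. With the actin covariate Gstp1 was called lower (-0.46, limma, adjusted p = 0.0189), as was the Gsta1/Gsta2 probe set (-0.60, adjusted p = 0.0484). For HVT minus SpV in KO lungs it was 0, with 1 under the actin covariate and 0 to 4 leaving out 1 array. In WT lungs and for the interaction it was 0 throughout.

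Without scaling, the median of all probe sets shifted by -0.77 under HVT and -0.46 under SpV in KO minus WT. Over all probe sets the SpV count was 80 and ran from 6 to 582 under other settings and 28 to 305 leaving out 1 array, the HVT count was 101 (28 to 268, and 30 to 744), and the averaged count was 515 (128 to 914, and 200 to 871). The ventilation counts were 0 in KO lungs (0 to 125, and 0 to 1010) and 4 in WT lungs (1 to 67, and 1 to 50), and the interaction count was 0 (0, and 0 to 102). The cause of these shifts was not tested. A replicate block gave 4, 5, 7, 0, 0 and 0 members called, the counts of the fit without it. In all 12 fits that left out 1 array, Gstm1 1416416_x_at and 1448330_at and Gsta3 1423436_at remained called under HVT and under SpV. Gstm1 1425626_at was called under SpV in 5 of the 12.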
